A study of Mus musculus with 8 samples.

Results

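A set of mitosis and G2/M genes were followed in mouse macrophages treated with menthol, with LPS or with both. The list held 40 genes of the machinery that carries a cell from the end of DNA replication through division. A probe set that the annotation assigned to a single symbol was found for 39 of them, and the remaining gene, Ccnb1, was not analysed here. The 39 genes were all among the 8908 genes tested, out of 18193 genes with such a probe set. A gene was tested when its most abundant probe set lay above the mean of all probe sets, 4.84 on the log2 scale, and no array gave a signal under 8.45 for any of the 39.

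The cells were RAW 264.7, a mouse macrophage line transformed by a leukaemia virus and kept in logarithmic growth, and 8 arrays were hybridised, 2 for each of 4 groups. The control cells received the control treatment. The M cells received menthol, a cyclic terpene alcohol of mint oil, for 1 h. The LPS cells were stimulated with LPS, a cell wall component of Gram-negative bacteria, at 100 ng/ml for 6 h after the control treatment. The LPS+M cells received menthol for 1 h and then the same LPS stimulation. The sample labels give no menthol dose and no harvest time for the control and M cells. Where LPS or LPS+M is compared with control or M, LPS and any difference in harvest time cannot be told apart. Replicates are labelled biological, but no culture is named, so p-values measure the spread between these arrays. Signals were deposited as log2 GC-RMA values, and a difference of 1 on this scale is a doubling. All 10 macrophage markers examined lay above the filter, while none of the T cell, B cell, fibroblast, epithelial and endothelial markers did. Of 4 neutrophil markers S100a8 lay above it, at a mean of 10.8, and its partner S100a9 was at 2.79.

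Entry into mitosis is driven by cyclin-dependent kinase 1 bound to B-type cyclins, which CDC25 phosphatases switch on and which Polo-like and Aurora kinases assist. Kinesins and crosslinking proteins then build the spindle, kinetochores attach the chromosomes to it, and the spindle checkpoint holds back the anaphase promoting complex until every chromosome is attached. The transcripts of these genes accumulate in late S phase and G2 and fall after division, so that in a growing culture their level follows both how many cells are in those phases and how much each of them makes. In RNA from whole cultures, fewer cells near division and less RNA per cell cannot be told apart.

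Across the 4 groups, the LPS arrays held the lowest values of nearly the whole set. The group mean of LPS was the lowest of the 4 for 37 of 39 genes, against 34.5% of all genes tested, and the exceptions were Aurka and Hmmr, which were lowest in control. The highest mean lay in control for 15 genes, in M for 15 and in LPS+M for 9, against 24.8%, 30% and 23.1% of all genes tested. On each array the deviation of every gene from its own mean over the 8 arrays was taken. The median deviation of the 39 genes was 0.06 and 0.05 on the control arrays, 0.09 and 0.11 on the M arrays, -0.22 and -0.19 on the LPS arrays, and 0.07 and 0.03 on the LPS+M arrays. Both LPS arrays thus lay apart from the other 6, while over all genes tested the median deviation stayed between -0.03 and 0.04. The 2 LPS+M arrays differed from each other by a mean of 0.131 per mitotic gene, more than the 0.0561 to 0.0713 between the arrays of the other groups.

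**Figure D1:**
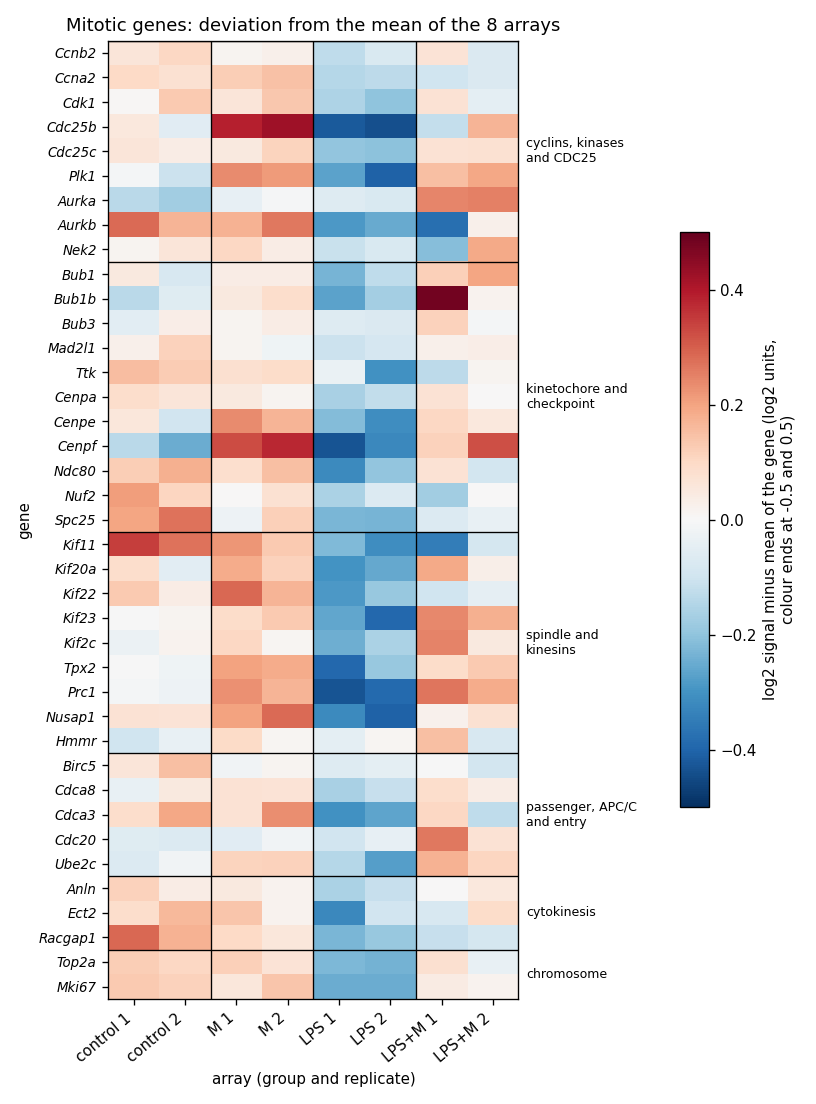
Deviation of 39 mitotic genes (rows, by role) from their own mean over the 8 arrays (columns), in log2 units; blue is lower and red higher. The LPS columns are blue for nearly every gene, with a median of -0.22 and -0.19, and the other 6 columns have medians between 0.03 and 0.11.

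The promoters of mitotic genes are known for 2 short elements, the cell cycle homology region near the start site, spelled TTTGAA with the variant spelling of some genes being TTCGAA, and the CCAAT box upstream of it. Windows of 300 bases, from 250 before to 50 after the RefSeq start on GRCm38.p6, were given for 35 of the 40 listed genes, Ccnb1 included; Aurkb, Ccna2, Cdc25c, Kif20a and Tpx2 had none. The windows of the 4 genes that passed the test with a change of at least 1.5-fold in any comparison are printed here 5′ to 3′. A relation between these elements and the expression changes was not tested. Capitals mark these elements on either strand, so that a CCAAT box on the other strand reads as ATTGG.
Cenpf, chr1:189688037-189688336, minus strand: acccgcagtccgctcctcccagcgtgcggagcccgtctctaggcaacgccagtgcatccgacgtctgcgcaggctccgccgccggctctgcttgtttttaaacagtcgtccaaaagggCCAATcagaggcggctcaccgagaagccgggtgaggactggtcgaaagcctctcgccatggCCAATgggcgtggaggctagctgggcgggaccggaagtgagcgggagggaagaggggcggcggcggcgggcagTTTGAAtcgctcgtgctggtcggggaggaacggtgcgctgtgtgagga
Prc1, chr7:80294201-80294500, plus strand: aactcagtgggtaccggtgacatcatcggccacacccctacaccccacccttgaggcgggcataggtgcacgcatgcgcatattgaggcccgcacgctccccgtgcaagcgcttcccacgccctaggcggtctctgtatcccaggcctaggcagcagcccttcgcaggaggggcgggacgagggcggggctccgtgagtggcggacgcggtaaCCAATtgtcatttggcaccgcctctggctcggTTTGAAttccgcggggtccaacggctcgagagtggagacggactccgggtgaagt
Cdc25b, chr2:131186698-131186997, plus strand: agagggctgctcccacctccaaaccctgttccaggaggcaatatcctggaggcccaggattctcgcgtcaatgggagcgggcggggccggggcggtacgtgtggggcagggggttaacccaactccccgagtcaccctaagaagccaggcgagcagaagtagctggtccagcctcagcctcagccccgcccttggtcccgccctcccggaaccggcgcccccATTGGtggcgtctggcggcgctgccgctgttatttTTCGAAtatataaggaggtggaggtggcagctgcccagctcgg
Nusap1, chr2:119618048-119618347, plus strand: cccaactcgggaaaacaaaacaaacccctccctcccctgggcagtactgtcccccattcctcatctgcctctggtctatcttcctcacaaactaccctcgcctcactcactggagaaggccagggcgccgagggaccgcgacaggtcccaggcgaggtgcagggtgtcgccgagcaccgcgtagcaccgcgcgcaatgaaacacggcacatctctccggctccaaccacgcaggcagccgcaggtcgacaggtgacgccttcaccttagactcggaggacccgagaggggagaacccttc
Cenpf carried TTTGAA at bases 3 to 8 counted from 1 at the start site, with CCAAT beginning at bases -132 and -71. Prc1, for which the first of 2 windows is shown, carried TTTGAA across the start site and a CCAAT box beginning at base -37. Cdc25b carried TTCGAA at bases 8 to 13 and a CCAAT box on the other strand at bases -28 to -24. Nusap1 held none of these letters in its window.

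Over both strands, a cell cycle homology region in either spelling occurred in the windows of 28 of the 35 genes (80.0%), against 16.2% of 7362 tested genes with a window. CCAAT occurred in 28 of 35 (80.0%), against 43.4%. Both kinds of element were present in 25 of 35 windows (71.4%), against 6.7%. The median GC content was 58.0% for the mitotic genes and 61.3% for the tested genes. A match is a description of the letters and not of a bound site.

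The first comparison set LPS alone against control. Against control, 37 of 39 genes had a lower mean in LPS, beside 5083 of the 8908 genes tested. The median log2 fold change of the 39 was -0.25, while the median over all genes tested was -0.03. Both LPS arrays lay below both control arrays for 36 of the 39 genes, against 37.9% of all genes tested. In limma with Benjamini-Hochberg adjustment, 22 genes were lower at an adjusted p under 0.05, or 56.4% of the set against 12.6% of all genes, and none was higher, against 9.13% of all genes. None reached the additional minimum of 1.5-fold, against 6.13% of all genes passing both criteria in either direction. At an unadjusted p under 0.05, 31 were lower and none higher, against 1843 lower and 1250 higher of the 8908 genes tested. The Welch test of the study's methods carries the same fold minimum, so it could call none of the set here. By its unadjusted p alone, 11 were lower. The share of all genes at that threshold was not computed, so this count has no background beside it.

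Among cyclins, kinases and CDC25 phosphatases, 5 of 9 genes were lower past the adjusted p. Aurkb, the kinase of the chromosomal passenger complex, differed most in this group. Its signal was 10.71 and 10.60 on the control arrays and 10.14 and 10.18 on the LPS arrays, and its log2 fold change was -0.50 (SE 0.122, adjusted p = 0.0243). Cdc25b, a phosphatase that activates cyclin-dependent kinases at mitotic entry, measured 9.03 and 8.92 in control and 8.55 and 8.53 in LPS (log2 fold change -0.43, adjusted p = 0.0173). Cdk1, the kinase at the centre of mitotic entry, narrowly missed the threshold at -0.24 (adjusted p = 0.0519). Aurka, the centrosomal Aurora kinase, was at a log2 fold change of 0.09, with a 95% interval of -0.05 to 0.22 that included 0.

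Of the 9 spindle genes and kinesins, 7 were lower past the adjusted p, the largest share of the 3 larger groups. Kif11, the bipolar kinesin that pushes spindle poles apart, showed the largest difference of the whole set. It measured 10.26 and 10.19 in control against 9.70 and 9.61 in LPS, without overlap. Its log2 fold change was -0.57 (95% interval -0.79 to -0.36, adjusted p = 0.00403), just under the 1.5-fold minimum. Nusap1, a protein that bundles spindle microtubules, measured 10.67 on each control array and 10.28 and 10.20 in LPS (-0.43, adjusted p = 0.00287). Prc1, the crosslinker of the central spindle, was at -0.39 (adjusted p = 0.00363). Hmmr, a spindle-associated protein that also binds hyaluronan, was at 0.05 (95% interval -0.15 to 0.25), while its 3 other probe sets above the filter gave -0.10, -0.19 and -0.50.

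Of 11 kinetochore and checkpoint genes, 4 were lower past the adjusted p. They were Spc25 (-0.46, adjusted p = 0.0029), Ndc80 (-0.41, adjusted p = 0.00873) and Nuf2 (-0.27, adjusted p = 0.0492), which are subunits of the microtubule-binding NDC80 complex, and Cenpa (-0.22, adjusted p = 0.0354), the histone H3 variant of centromeres. The checkpoint genes Bub1, Bub1b, Bub3, Mad2l1 and Ttk did not pass, with log2 fold changes from -0.31 for Ttk to -0.06 for Bub3. All 3 cytokinesis genes were lower past the adjusted p, led by Racgap1, part of the centralspindlin complex (-0.44, adjusted p = 0.00259). Both chromosome genes were lower as well. Mki67, the proliferation marker that coats mitotic chromosomes, measured 13.49 and 13.48 in control and 13.11 on each LPS array (-0.37, adjusted p = 0.0038), and Top2a, which untangles DNA, was at -0.34 (adjusted p = 0.00773). Of the 5 genes of the passenger complex, ubiquitination and mitotic entry, Cdca3, a trigger of mitotic entry, passed at -0.43 (adjusted p = 0.0162), and Cdc20, the activator of the anaphase promoting complex, was at -0.00 with an interval of -0.18 to 0.17.

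The count of 22 depended on single arrays. It was 7 without control replicate 1, 8 without control replicate 2, 10 without LPS replicate 1, 11 without LPS replicate 2 and 14 without either M array, but 24 without either LPS+M array, and Kif11 passed 1.5-fold without control replicate 2 (-0.61) and without LPS replicate 1 (-0.62).

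**Figure D2:**
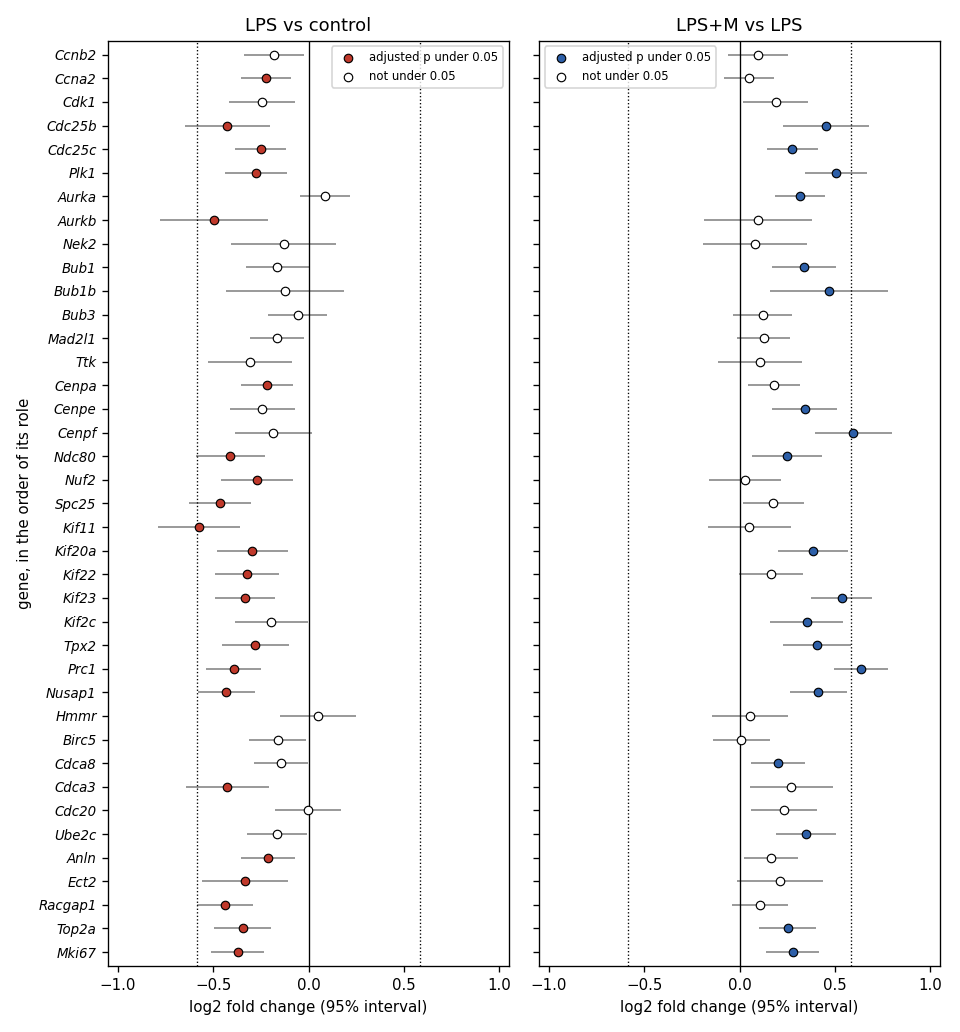
Log2 fold change (points) with 95% interval from limma (lines) for 39 mitotic genes in role order, for LPS against control (left) and LPS+M against LPS (right). Filled points have an adjusted p under 0.05 and dotted lines mark 1.5-fold; 22 filled points lie left of 0 on the left panel and 19 lie right of 0 on the right panel.

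The next comparison set menthol before LPS against LPS alone. All 39 genes had a higher mean in LPS+M, beside 4895 of the 8908 genes tested. The median log2 fold change of the 39 was 0.23, against 0.03 over all genes tested. Both LPS+M arrays lay above both LPS arrays for 32 of 39 genes, against 36% of all genes. At an unadjusted p under 0.05, 25 were higher and 0 lower, against 2149 and 1491 of the 8908 genes tested. At an adjusted p under 0.05, 19 genes were higher (48.7%, against 17.3% of all genes) and 0 lower (against 11.4%). With the 1.5-fold minimum, 2 genes rose, Prc1 and Cenpf, or 5.13% of the set against 6.71% of all genes in either direction, so by that rule the set was close to the background. The LPS arrays serve in both of these comparisons, so a low value there moves both.

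Prc1 rose 1.55-fold. It measured 9.78 and 9.82 on the LPS arrays and 10.48 and 10.40 on the LPS+M arrays, and these also lay above its control values of 10.20 and 10.19. Its log2 fold change was 0.64 (SE 0.0619, adjusted p = 0.000458). Cenpf, a large kinetochore protein that peaks in G2 and mitosis, rose 1.51-fold, from 10.57 and 10.69 in LPS to 11.12 and 11.33 in LPS+M (log2 fold change 0.60, SE 0.0872, adjusted p = 0.00246). The Cenpf call was lost without LPS replicate 1 (0.54) and without LPS+M replicate 2 (0.49).

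In the same contrast 6 of 9 spindle genes and kinesins were higher past the adjusted p. Besides Prc1 they were Kif23, the motor of centralspindlin (0.53, adjusted p = 0.00137), Nusap1 (0.41, adjusted p = 0.0033), Tpx2, which activates Aurka on the spindle (0.41, adjusted p = 0.00708), Kif20a, a kinesin of the central spindle (0.39, adjusted p = 0.0102), and Kif2c, a kinesin that depolymerises microtubules (0.35, adjusted p = 0.0165). Kif23 measured 9.81 and 9.67 in LPS and 10.31 and 10.24 in LPS+M, with control between them at 10.07 and 10.08. Kif11, the gene furthest below control in LPS, was at 9.57 and 9.83 in LPS+M, which overlapped its LPS values, and its difference of 0.05 had an interval of -0.16 to 0.27. Another probe set of Kif11 gave 0.35 here.

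Among cyclins, kinases and phosphatases 4 of 9 genes were higher past the adjusted p. Plk1, the Polo-like kinase, measured 10.01 and 9.88 in LPS and 10.43 and 10.47 in LPS+M (0.51, adjusted p = 0.00203). Cdc25b was higher by 0.45 (adjusted p = 0.0113), Aurka by 0.32 (adjusted p = 0.00557) and Cdc25c by 0.28 (adjusted p = 0.0108). For Aurka both LPS+M arrays, at 10.61 and 10.62, lay above all of the other 6, which spanned 10.19 to 10.36. Aurkb was not separated, with 10.05 and 10.46 in LPS+M around its LPS values (0.09, 95% interval -0.19 to 0.38).

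Of the 11 kinetochore and checkpoint genes 5 were higher past the adjusted p. They were Cenpf, Bub1b (0.47, adjusted p = 0.0347), the kinetochore motor Cenpe (0.34, adjusted p = 0.0123), the checkpoint kinase Bub1 (0.34, adjusted p = 0.0113) and Ndc80 (0.25, adjusted p = 0.0482). Bub1b rested on unequal arrays, 9.71 and 9.25 in LPS+M against 8.96 and 9.06 in LPS. Ube2c, the ubiquitin-conjugating enzyme of the anaphase promoting complex, was higher by 0.35 (adjusted p = 0.00804), and Cdca8, a passenger complex subunit, by 0.20 (adjusted p = 0.0431). Birc5, the survivin subunit of the same complex, was at 0.01 (95% interval -0.14 to 0.16). Mki67 (0.28, adjusted p = 0.0117) and Top2a (0.25, adjusted p = 0.0229) passed, and none of the 3 cytokinesis genes did, with 0.11 to 0.21. Without LPS replicate 1 or 2 the count of 19 became 11 or 10.

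**Figure D3:**
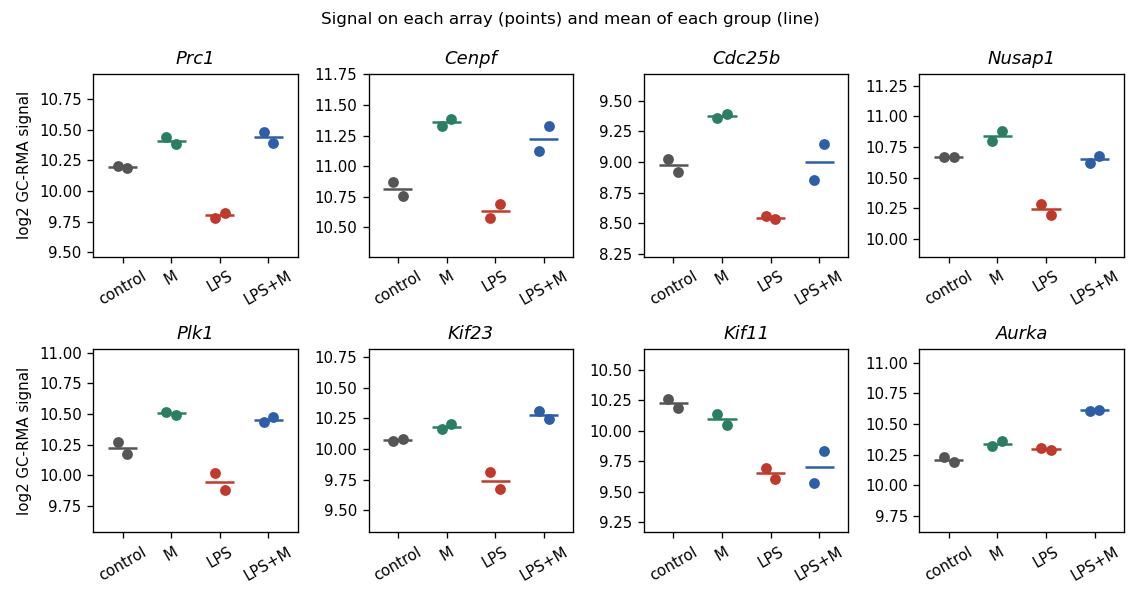
Log2 GC-RMA signal of 8 mitotic genes on each array (points) with the mean of each group (line); each panel spans the same range of 1.5 log2 units around the mean of its gene. LPS is lowest in 7 panels, and LPS+M stands near or above control in 7, while in Kif11, on the probe set shown, it overlaps LPS and in Aurka it lies above all other groups.

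The contrast between both single treatments uses the same LPS arrays again. All 39 genes were lower in LPS than in M, beside 5234 of the 8908 genes tested. The median of the 39 was -0.28, against -0.06 over all genes. Of the 39, 26 passed the adjusted p (66.7%, against 24.3% lower and 14.4% higher over all genes). With the 1.5-fold minimum 4 fell (10.3%, against 11.3% of all genes in either direction). They were Cdc25b (1.78-fold, adjusted p = 0.000457), Cenpf (1.66-fold, adjusted p = 0.000543), Prc1 (1.52-fold, adjusted p = 0.000255) and Nusap1 (1.52-fold, adjusted p = 0.00032). Cdc25b measured 9.36 and 9.40 in M and 8.55 and 8.53 in LPS. Cenpf measured 11.33 and 11.38 in M against 10.57 and 10.69 in LPS. Neither pair of groups overlapped. Both LPS arrays lay below both M arrays for 37 of the 39 genes, against 45.5% of all genes tested. The Prc1 call was lost without M replicate 1 (-0.58), and that of Nusap1 without LPS replicate 2 (-0.56) or without M replicate 2 (-0.56). Without M replicate 2, the count of 26 became 16.

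Menthol alone left most of the genes near their control values. Against control the median was 0.03, beside 0.02 over all genes, and 0 genes passed both criteria (against 4.55% of all genes). The Welch test also called 0, because no gene of the set reached its 1.5-fold minimum. At an unadjusted p under 0.05, 7 were higher and 2 lower, against 1842 and 1260 of the 8908 genes tested. At an adjusted p under 0.05, 4 were higher (10.3%, against 13.1% of all genes) and 0 lower (against 8.63%). The 4 were Cenpf, at 10.87 and 10.76 in control and 11.33 and 11.38 in M (0.54, adjusted p = 0.00502), Cdc25b (0.41, adjusted p = 0.0217), Plk1 (0.28, adjusted p = 0.026) and Prc1 (0.22, adjusted p = 0.0425). Cenpf passed 1.5-fold without control replicate 1 (0.60). In the other direction Spc25 was at -0.19 (adjusted p = 0.0963) and Racgap1 at -0.15 (adjusted p = 0.131), where another Racgap1 probe set of similar signal gave 0.28.

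**Figure D4:**
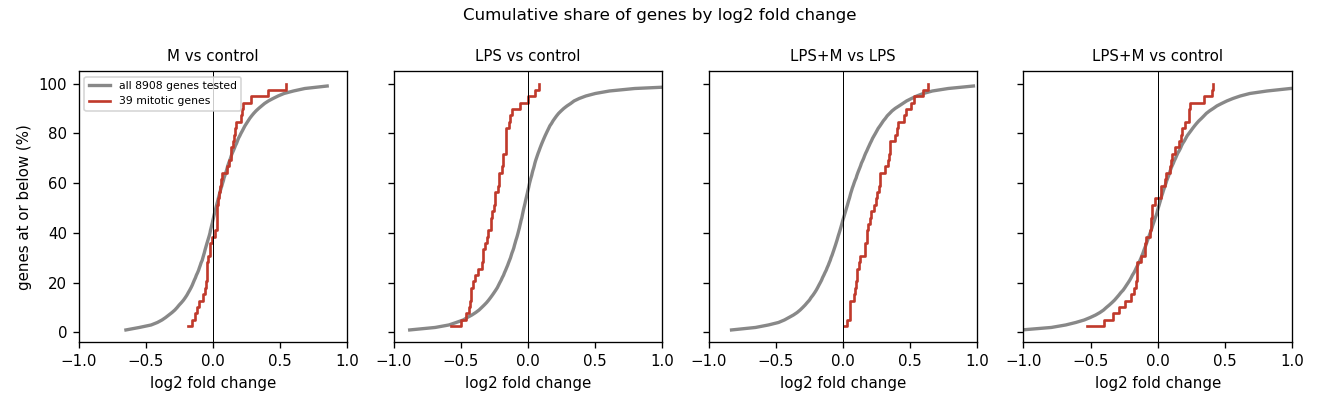
Cumulative share of genes (vertical, percent) by log2 fold change (horizontal) for 39 mitotic genes (red) and all 8908 genes tested (grey) in 4 comparisons. The red curve lies left of the grey for LPS against control (medians -0.25 and -0.03) and right of it for LPS+M against LPS (0.23 and 0.03), and is close to it at the median in the other panels.

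With menthol and LPS together the set as a whole lay near control, with single genes on either side. The median against control was -0.04, beside 0.00 over all genes, and 0 genes passed both criteria (against 9.83% of all genes). The Welch test called 0 too, because no gene of the set reached its 1.5-fold minimum. At an unadjusted p under 0.05, 9 were higher and 7 lower, against 2047 and 1914 of the 8908 genes tested. At an adjusted p under 0.05, 5 were higher and 5 lower (25.6% in all, against 34.6% of all genes). The higher genes were Cenpf (0.41, adjusted p = 0.00849), Aurka (0.40, adjusted p = 0.00135), Prc1 (0.24, adjusted p = 0.018), Cdc20 (0.23, adjusted p = 0.045) and Plk1 (0.23, adjusted p = 0.038). The lower genes were Kif11 (-0.52, adjusted p = 0.00399), Aurkb (-0.40, adjusted p = 0.0367), Racgap1 (-0.33, adjusted p = 0.00559), Spc25 (-0.29, adjusted p = 0.0148) and Ccna2, the S and G2 phase cyclin (-0.17, adjusted p = 0.0459). Other probe sets turned the direction for Racgap1 (0.26), Ccna2 (0.02) and Prc1 (-0.02), and gave -0.25 for Kif11. Without LPS+M replicate 2, Kif11 (-0.65) and Aurkb (-0.60) passed the 1.5-fold minimum.

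Against menthol alone, adding LPS gave a median of -0.07, beside -0.03 over all genes. None of the 39 passed both criteria (against 4.16% of all genes). The Welch test called 0, because no gene of the set reached its 1.5-fold minimum. At an unadjusted p under 0.05, 2 were higher and 7 lower, against 1088 and 1493 of the 8908 genes tested. At an adjusted p under 0.05, 1 was higher and 4 lower (12.8% in all, against 14.2%). Aurka was the higher gene (0.27, adjusted p = 0.0178). The lower ones were Kif11 (-0.39, adjusted p = 0.0302), Cdc25b (-0.38, adjusted p = 0.0366), Kif22, a chromosome-binding kinesin (-0.30, adjusted p = 0.0305), and Ccna2 (-0.22, adjusted p = 0.0372). The 2 further Kif22 probe sets gave -0.12 and 0.06. Without LPS+M replicate 2, Aurkb also passed both criteria (-0.60).

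Whether menthol acted differently with and without LPS was tested as an interaction, the LPS+M against LPS difference minus the M against control difference. It was above 0 for 38 of 39 genes, beside 4607 of the 8908 genes tested, with a median of 0.20 against 0.01 over all genes. But 0 of the 39 passed the adjusted p, without or with the fold minimum (against 0.247% and 0.236% of all genes in either direction). At an unadjusted p under 0.05, 15 were above 0 and none below, against 486 above and 406 below of the 8908 genes tested. The largest were Kif23 (0.43, adjusted p = 0.168) and Prc1 (0.42, adjusted p = 0.151), while Cenpf (0.05, adjusted p = 0.946) and Cdc25b (0.05, adjusted p = 0.965) were close to 0. For the comparisons of 2 groups, with 2 arrays in each, the smallest two-sided p of an exact permutation of a single gene is 0.333.

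Other probe sets of the same genes were compared next. For 20 genes, 25 further probe sets lay above the filter. Their log2 fold change had the sign of the main probe set for 20 of 25 in LPS against control, for 21 of 25 in LPS+M against LPS and for 22 of 25 in LPS against M. In LPS against control the 5 that differed in sign belonged to Hmmr (3), Anln and Bub3, and another probe set of Kif11 fell past both criteria (-0.60). In LPS+M against LPS the 4 that differed belonged to Anln, a cytokinesis scaffold, Bub3, a checkpoint protein, Bub1 and Tpx2. Those of Anln and Bub3 fell by 1.87 and by 0.73 on the log2 scale, where the main probe sets gave 0.16 and 0.12. Those of Bub1 and Tpx2 gave -0.19 and -0.12, where the main ones gave 0.34 and 0.41. For Racgap1, whose further probe set had a mean signal of 10.9 against 11.1, the value was 0.51 against 0.11, and the further probe set of Prc1 gave 0.30 against 0.64. The further Anln and Bub3 probe sets had mean signals of 5.83 and 7.01, against 12.1 and 12.9 for the main ones. In LPS against M these 2 were higher past both criteria (1.04 and 0.67) and the further Bub1 probe set was at 0.10, where the main ones were lower.

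The remaining division genes, taken from further lists, showed the low values in LPS too. Against control, 18 of 34 other kinetochore genes, 18 of 39 other spindle and cytokinesis genes and 12 of 21 cohesin and condensin genes were lower past the adjusted p, with medians of -0.32, -0.27 and -0.25 and none higher, against 12.6% lower over all genes. With the fold minimum 1, 4 and 1 of them fell, shares on either side of the 6.13% of all genes called in either direction, among them Mastl, the Greatwall kinase (-0.77, adjusted p = 0.000469). Among 15 genes of the anaphase promoting complex and its regulators, 1 was lower past the adjusted p and the median was -0.04. In LPS+M against LPS, 8 of the other kinetochore genes, 10 of the other spindle genes and 5 of the cohesin and condensin genes were higher past the adjusted p, with medians of 0.09, 0.07 and 0.15, and 1 of the other spindle genes was lower, against 17.3% higher and 11.4% lower over all genes. Depdc1b (0.78, adjusted p = 0.00296) and Kif18b (0.62, adjusted p = 0.000452), a mitotic kinesin, rose past both criteria, which 6.71% of all genes passed in either direction.

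Of 22 upstream regulators, 5 fell and 1 rose in LPS against control, where 6.13% of all genes were called. E2f8, an atypical E2F repressor (-0.97, adjusted p = 0.00126), and Mybl2, the B-Myb subunit of the complex that switches on G2/M genes (-0.75, adjusted p = 0.00137), were among those that fell, and Myc rose (1.07, adjusted p = 6.2e-05). Foxm1, the other main activator of G2/M genes, was chosen for mention after its values were seen. It measured 7.55 and 7.49 in control and 6.84 and 7.13 in LPS, and 7.15 and 7.23 in LPS+M, and its differences between control and LPS and between LPS and LPS+M were under 1.5-fold. In LPS+M against LPS, 0 of the 22 regulators rose and 1 fell (against 6.71% of all genes), with a median of 0.05. In LPS+M against control 5 fell and 0 rose (against 9.83%). Among them were E2f8 (-1.37, adjusted p = 0.00014) and Mybl2 (-0.64, adjusted p = 0.00178), so these 2 stayed below control with menthol.

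The genes of G1 and S phase were mostly lower after menthol as well as after LPS. Of 44 tested, 32 were lower past the adjusted p in M against control and 8 fell past both criteria, led by the replication licensing factor Cdc6 (-0.97, adjusted p = 0.000677), with a median of -0.42. Over all genes 8.63% were lower past the adjusted p there and 4.55% were called. In LPS against control 32 were lower past the adjusted p, against 12.6% of all genes, with a median of -0.43, and 3 fell past both criteria, a share near the 6.13% of all genes, among them Gmnn, the licensing inhibitor geminin (-0.89, adjusted p = 3.99e-05). In LPS+M against LPS 24 were lower and 1 higher past the adjusted p, against 11.4% lower and 17.3% higher over all genes, with a median of -0.26, and 6 fell and 1 rose past both criteria (against 6.71%), where the mitotic set had 19 higher and 0 lower. In LPS+M against control 22 fell and 1 rose past both criteria, with a median of -0.60, against 9.83% of all genes called. The difference between both lists was not tested.

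Inhibitors of the cycle and growth arrest genes were mixed. Of 19 tested, 6 rose and 1 fell in M against control (4.55% of all genes were called), with Gadd45a (1.28, adjusted p = 0.000132), Ccng2, an unconventional cyclin of arrested cells (1.20, adjusted p = 0.000568), and Trp53inp1 (1.19, adjusted p = 0.000365) at the top. In LPS against control 4 fell and 1 rose (against 6.13%), with Cdkn2c, an inhibitor of G1 kinases, furthest down (-1.27, adjusted p = 2.61e-05). In LPS+M against LPS 6 rose and 1 fell (against 6.71%), led by Ccng2 (1.80, adjusted p = 6.69e-05) and Gadd45a (1.64, adjusted p = 3.21e-05).

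**Figure D5:**
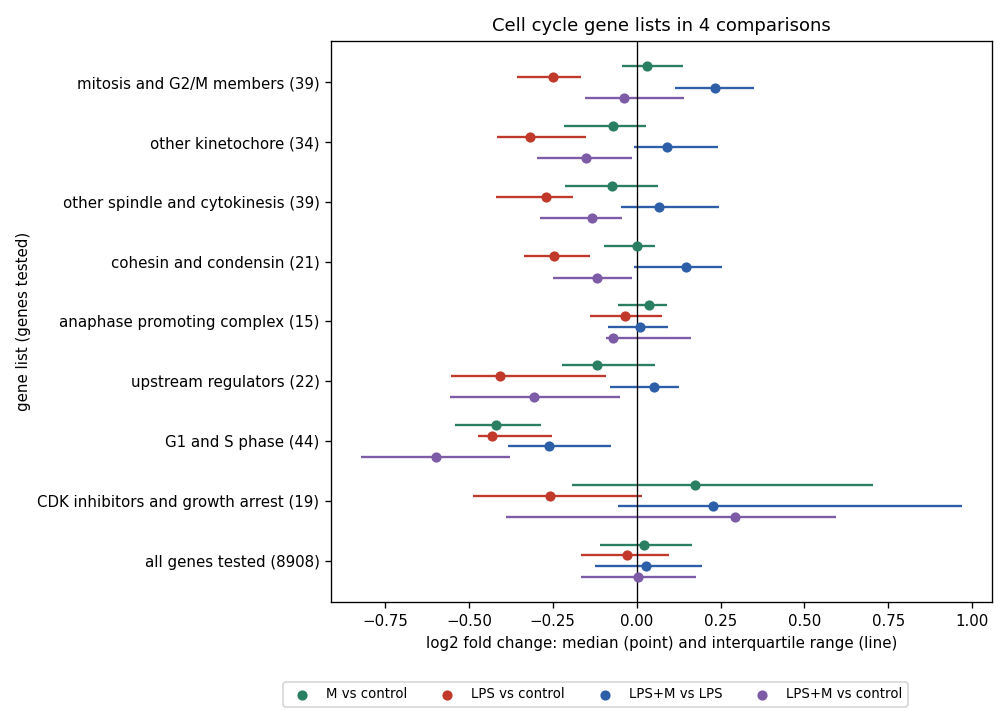
Median log2 fold change (points) and the interquartile range of the genes (lines) for the mitotic genes, 7 further cell cycle lists and all genes tested, in 4 comparisons, with the number of genes tested in brackets. The mitotic genes, other kinetochore, other spindle and cohesin lists have medians below 0 in LPS against control and above 0 in LPS+M against LPS. In LPS+M against LPS the interquartile ranges of the other kinetochore, other spindle and cohesin lists reach below 0, and that of the mitotic genes does not. The median of the G1 and S phase list is below 0 in all 4 comparisons.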

How the data were processed

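Total RNA from 8 samples was hybridised to Affymetrix mouse genome arrays. The authors deposited log2 values per probe set, made with GCRMA (version 2.10.0, under R version 2.6.1) per the submitters' processing notes, which corrects background by probe GC content, quantile normalizes the arrays and summarises each probe set; weak probes are compressed and absolute shifts shared by all genes are removed. Array number limits the precision. Groups came from the sample labels, and every array was mapped. Of 45101 probe sets, 34945 had a single symbol, 932 several, 9160 none and 64 were controls. Each gene was represented by its brightest single-symbol probe set over the 8 arrays, and the test kept genes whose mean exceeded the overall probe set mean (4.84), as the study's methods did.

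Group means of all 8 arrays were fitted with limma 3.58.1 in R 4.3.3 (lmFit, eBayes), with Benjamini-Hochberg adjustment over all 8908 genes per comparison; a call needed an adjusted p under 0.05 and 1.5-fold. The fit was tested on simulated data. Every member could be named, with called members and the extremes of each role group, and up to 4 called genes of each other list. The 40 members, their roles and the other lists were chosen with earlier results of these data known. The main fit did not pair the samples by replicate number. Correlations between groups of the replicate differences ran from -0.121 to 0.186, with 2 of 6 over 0.1 and the highest for LPS with LPS+M. Whether same-numbered arrays shared a batch was not tested, and the labels do not say. Alternatives were no filter, the mean of all probe sets, each probe set alone, quantile normalization, a median shift, trended robust eBayes, other fold minima, the replicate block, leaving out each array, the compared groups alone, and the methods' t-test (Welch). Counts past the adjusted p alone and counts of arrays that do not overlap were recomputed under alternatives added after the data were seen. Some genes of the further lists are not reported here. Promoter windows were taken from RefSeq.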

Additional observations from a re-analysis of the deposited data

Results flagged for a closer look

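The menthol effect on Myc differed with and without LPS. The interaction was -0.95 on the log2 scale (limma, adjusted p = 0.0182), since Myc was lower by a log2 fold change of -0.80 in LPS+M against LPS and at 0.15, not called, in M against control. The call was lost in 9 of 16 alternatives, among them 7 of the 8 that left out an array, where the interaction ran from -1.03 to -0.87.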

How the results depend on the processing

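The members' median log2 fold change kept its sign in LPS against control, LPS+M against LPS and LPS against M under every alternative run. With the mean of all probe sets it was -0.21, 0.19 and -0.24 in these, with 1, 1 and 2 members called in LPS+M against control, LPS+M against LPS and LPS against M. The called gene in LPS+M against LPS was then Anln, which turned to -0.85 because its minor probe set entered the mean. With no fold minimum the member calls were 4 in M against control, 22 in LPS against control, 19 in LPS+M against LPS, 5 in LPS+M against M, 10 in LPS+M against control and 26 in LPS against M; a minimum of 2-fold left 0 in LPS+M against LPS and 0 in LPS against M. Quantile normalization left 1 in LPS+M against LPS. Testing each probe set by itself gave 2 lower in M against control, 1 lower in LPS against control and 3 lower in LPS+M against control. It gave 2 higher and 2 lower in LPS+M against LPS, and 2 higher and 4 lower in LPS against M. The methods' t-test called 1 in LPS+M against LPS, and after Benjamini-Hochberg 0 there and 0 in LPS against M. Leaving out 1 array at a time gave 0 to 1 calls in M against control, LPS against control and LPS+M against M and 0 to 2 in LPS+M against control, with medians from -0.29 to -0.23 in LPS against control, 0.19 to 0.27 in LPS+M against LPS and -0.068 to -0.032 in LPS+M against M.

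Counts past the adjusted p alone ranged over the left-out arrays from 7 to 24 in LPS against control (22 with all arrays), 10 to 21 in LPS+M against LPS (19) and 16 to 29 in LPS against M (26). The methods' t-test gave 11, 11 and 16 of these at its unadjusted threshold and 0, 0 and 0 after Benjamini-Hochberg, and a fit to the compared groups alone gave 12 in LPS+M against LPS. For the t-test without a fold minimum, the share over all genes was not computed. For these 3 counts the cause of the loss without an array was not tested, beyond that fewer arrays entered the fit. With the replicate block they were 20, 17 and 25, and the block changed no call of a member.

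Over all genes, calls moved by more than 1.5 times with the mean of all probe sets (253 in M against control, 371 in LPS+M against LPS, 581 in LPS+M against control, 663 in LPS against M), with no fold minimum (1934, 1935, 2560, 1268, 3085 and 3450 in M against control, LPS against control, LPS+M against LPS, LPS+M against M, LPS+M against control and LPS against M), with 2-fold (85, 184, 136, 136, 268 and 329 in the same order), with the methods' t-test (254, 349, 288, 217, 503 and 640) and after its adjustment (0 in all 6). The interaction had 21 calls, 1 with no filter, 45 with trended robust eBayes, 11 with 2-fold and 2 to 40 with an array left out.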
